A study of Mus musculus with 12 samples.

Results

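Levels of 10 genes that are known mainly from blood cells were measured in medullary thymic epithelial cells, among 50600 genes listed in all 12 RNA sequencing libraries. They were Cd79a, Cd79b, Blk and Ms4a1 of B cells, the progenitor receptor gene Flt3, and Adgre1, Lyz2, Cd52, Mpo and Hdc, which are known mainly from myeloid cells, lymphocytes or mast cells. The genes were picked by name with their levels in cells of high and low MHC class II already known, so the values that set these cells apart are a description and carry no test. Polyadenylated RNA came from primary thymus cells of mice aged 6 to 8 weeks. Sorted medullary cells rich in surface MHC class II (mTEC hi) gave 6 libraries, and those poor in it (mTEC lo) gave another 6. The mice carried Psmb11-/- (strain B6.B6CB-Psmb11tm1Smta), a germline loss of the proteasome subunit gene of cortical thymic epithelium, or were Psmb11+/+ (WT).

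The genotype is undisputed for 8 libraries, 2 Psmb11-deficient and 2 WT per cell type. For the remaining 4 the title contradicts the source name and strain, and these entered no main comparison of genotypes. In the 8 undisputed libraries the Psmb11-deficient ones are numbered 1 and 2 in the title and the WT ones 2 and 3. Title number and genotype are thus partly confounded. The labels do not say whether the libraries of a group came from separate mice, so p-values cover only how these libraries vary, and that variation may be technical. The libraries held between 38791960 and 86793594 reads in genes. In bulk RNA, fewer cells of a type and less RNA per cell cannot be told apart.

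Medullary thymic epithelial cells display proteins of other tissues to developing T cells, so that T cells that bind the body's own proteins can be removed or diverted. Mature cells carry much MHC class II, and many of them express Aire, a regulator that allows transcription of genes otherwise restricted to single tissues. B cells, dendritic cells and macrophages also reside in the medulla and present antigens there. The epithelial labels were checked against their markers. Epcam, a surface protein of epithelia, was at 620 CPM ± 16.8 (SD, n = 6) in mTEC hi and 847 CPM ± 60.1 (SD, n = 6) in mTEC lo, where CPM is the read count brought to a common library size by TMM. Aire was at 1979 CPM ± 186 (SD, n = 6) in mTEC hi and 17.6 CPM ± 5.35 (SD, n = 6) in mTEC lo, and Krt5, a keratin of basal and medullary cells, was at 717 and 4516 CPM.

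Promoter sequence in RefSeq (GRCm38.p6, 250 bases before to 50 after each start) was matched for 5 of the 10 genes: Hdc, Flt3, Cd79a, Lyz2 and Mpo. Stretches outside annotated exons are shown for 4 of them because they span the lowest and the highest CpG content in the group. Those of Lyz2, Mpo and Flt3 lie just before the annotated gene, while that of Hdc lies before the RefSeq start but inside the annotated gene, in an intron of a longer transcript. CpG dinucleotides are in capitals, and each stretch reads 5′ to 3′ along its gene.
Hdc (chr2:126618679-126618798, minus strand): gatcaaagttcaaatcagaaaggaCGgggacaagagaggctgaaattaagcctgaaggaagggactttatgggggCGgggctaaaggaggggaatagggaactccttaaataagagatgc
Lyz2 (chr10:117282322-117282441, minus strand): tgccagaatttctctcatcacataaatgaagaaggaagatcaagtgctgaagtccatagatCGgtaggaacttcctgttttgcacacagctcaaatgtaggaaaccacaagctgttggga
Mpo (chr11:87793534-87793580, plus strand): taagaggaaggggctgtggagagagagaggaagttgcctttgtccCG
Flt3 (chr5:147400490-147400609, minus strand): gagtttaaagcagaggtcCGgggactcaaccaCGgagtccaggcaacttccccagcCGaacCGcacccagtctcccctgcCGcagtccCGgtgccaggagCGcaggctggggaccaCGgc

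The Lyz2 window of 300 bases held 1 CpG, the Mpo window held 2, the Hdc window 3, the Cd79a window 8 and the Flt3 window 18. The median of the 32851 windows in the table was 7, with quartiles of 3 and 20. The Lyz2 and Mpo windows thus held fewer CpG than the first quartile, and no member window passed the third. Motifs were read on both strands over the whole windows, and the palindromes CANNTG and CCCNNGGG were counted once. GAGGAA, the core of the site bound by PU.1, a factor of myeloid and B cells, stood in the Mpo and Cd79a windows, 2 of 5, and in 28.3% of all windows. CCCNNGGG, the core for the B cell factor EBF1, stood in 0 of 5 windows and in 13.7% of all. TATAAA also stood in 0 of 5, against 13.6% of all. The E-box CANNTG stood in 4 of 5, against 72.3% of all, and the GC box GGGCGG in 1 of 5, against 35.7%. These matches describe letters in a window and are not evidence of binding.

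All members but Cd79b, 9 of 10, were at higher levels in every mTEC hi library than in any mTEC lo library. Of 23923 genes tested, 38.5% separated the libraries in that way. In TPM, the length-scaled unit of RSEM, and in CPM by library size alone 10 of 10 members did, against 41.8% and 45.6% of genes tested. The members' own counts say nothing beyond how they were picked. By the edgeR quasi-likelihood test with Benjamini-Hochberg adjustment, 44.2% of genes tested were higher in mTEC hi and 38% were lower, 82.1% in all. The median log2 fold change, mTEC hi over mTEC lo, was 4.84 over the 10 members and 0.08 over all genes tested. Scaling by library size alone raised the median over all genes to 0.37 and the share of higher genes among those called from 53.8% to 67%, so small differences between the cell types depend on the scaling.

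**Figure D1:**
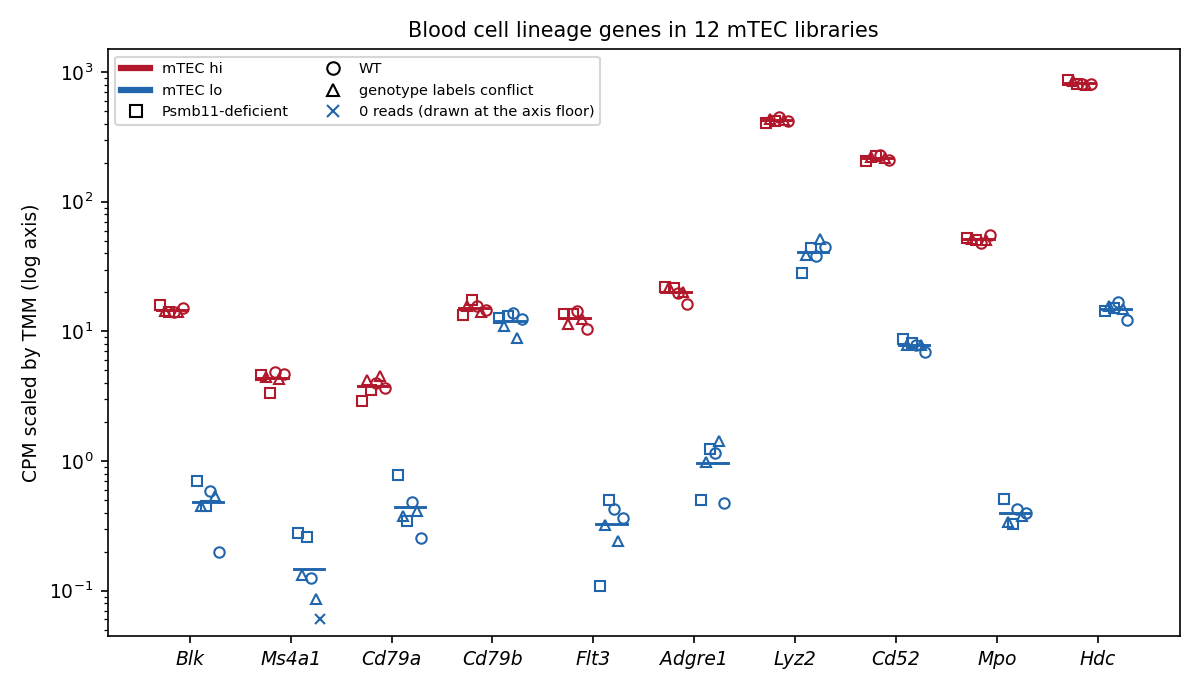
TMM-scaled CPM of each gene in each library, on a log axis, with red for mTEC hi and blue for mTEC lo, marker shape for genotype label and a bar at the mean of 6. On this scale the groups overlap for Cd79b, and the library with 0 Ms4a1 reads is drawn near the axis floor.

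The B cell receptor signals through Cd79a and Cd79b, a pair of chains that carry the signalling motifs, and these genes differed from each other. Cd79a (chr7:24897381-24902197, plus strand, in GRCm38 with GENCODE M21 annotation as for all genes here) was at 2.89, 3.80 and 4.52 CPM in mTEC hi (lowest, median and highest library) and at 0.254, 0.395 and 0.776 CPM in mTEC lo. The lowest mTEC hi library lay above the highest mTEC lo library, and the means differed 8.60-fold. Cd79b (chr11:106311341-106314762, minus strand) was at 13.3, 15.1 and 17.4 CPM in mTEC hi and at 8.86, 12.6 and 13.9 CPM in mTEC lo. On this scale its groups overlapped, and the means, 15.1 CPM ± 1.43 and 12 CPM ± 1.80 (SD, n = 6 each), differed 1.26-fold. The overlap depended on the unit. In TPM Cd79b was at 18.4 to 25.4 in mTEC hi and 8.05 to 17.2 in mTEC lo, and by library size alone at 15.04 to 18.9 and 7.71 to 12.5 CPM, with no overlap and ratios of 1.59-fold and 1.53-fold.

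Blk (chr14:63372836-63417037, minus strand), a kinase of the Src family that acts downstream of the B cell receptor, was at 14.0, 14.3 and 15.9 CPM in mTEC hi. In mTEC lo it was at 0.200, 0.493 and 0.699 CPM, which put the means 30.0-fold apart. Ms4a1 (chr19:11249675-11266241, minus strand), the gene of the B cell surface protein CD20, was at 3.32, 4.54 and 4.86 CPM in mTEC hi and at 0, 0.128 and 0.279 CPM in mTEC lo. Its 6 mTEC lo libraries held 52 reads in all, against 1720 in mTEC hi. One WT library of mTEC lo held 0 reads, which allows up to 0.0544 CPM (3 reads, counting error only). The means, 4.38 CPM ± 0.554 and 0.147 CPM ± 0.106 (SD, n = 6 each), differed 29.8-fold.

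Flt3 (chr5:147330741-147400489, minus strand), a growth factor receptor of blood progenitors and dendritic cell precursors, was at 10.5, 13.0 and 14.3 CPM in mTEC hi and at 0.109, 0.342 and 0.501 CPM in mTEC lo, with means 38.7-fold apart. Adgre1 (chr17:57358691-57483527, plus strand) encodes F4/80, the surface protein used to identify mouse macrophages. It was at 16.2, 20.8 and 22.2 CPM in mTEC hi and at 0.472, 1.07 and 1.43 CPM in mTEC lo, 21-fold apart. For Adgre1 the lowest mTEC hi library was 11.4 times the highest mTEC lo library, and for Cd79a, which has the narrowest such gap of the 9 members that do not overlap on this scale, 3.73 times.

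Lyz2 (chr10:117277331-117282321, minus strand), the lysozyme of macrophages and neutrophils, was at 404, 423 and 450.4 CPM in mTEC hi and at 28.4, 41.3 and 51.8 CPM in mTEC lo. The means, 425 CPM ± 15.2 and 40.9 CPM ± 7.87 (SD, n = 6 each), differed 10.4-fold. Lyz1, a near-identical paralogue 5.48 kb away, was at 227 CPM ± 25.7 in the mTEC hi libraries and at 29.5 CPM ± 7.004 in the mTEC lo ones (SD, n = 6 each). How reads were split between these copies is uncertain. Cd52 (chr4:134082448-134095082, minus strand), a small glycoprotein anchored on lymphocytes and monocytes, was at 206, 219 and 229.7 CPM in mTEC hi and at 6.88, 7.83 and 8.80 CPM in mTEC lo, 27.7-fold apart.

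Mpo (chr11:87793581-87804413, plus strand), the myeloperoxidase of neutrophil granules, showed the largest fold of the 10. It was at 47.9, 51.2 and 55.8 CPM in mTEC hi and at 0.328, 0.389 and 0.512 CPM in mTEC lo, with means 129.8-fold apart and 18 to 33 reads in each mTEC lo library. Mpo overlaps Gm11505, a gene annotated on the opposite strand. The columns for the separate strands together held 1.46 times the Mpo reads of the column without strand, against at most 1.006 times for the other 9 members, so the Mpo level depends on the column used. Hdc (chr2:126593667-126619299, minus strand), the enzyme that makes histamine from histidine, had the most reads, 34061 to 75682 per mTEC hi library. It was at 798, 809 and 864 CPM in mTEC hi and at 12.2, 15 and 17.0 CPM in mTEC lo, 55.4-fold apart.

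Levels of different genes were compared per length, in TPM. In mTEC hi Cd52 was highest (978 TPM ± 59.7, SD, n = 6), followed by Lyz2 (656 ± 19.9) and Hdc (583 ± 28.4). The libraries of Lyz2 and Hdc overlapped, so the order of that pair is not settled. Mpo followed at 62.3 ± 4.86 TPM and Cd79b at 22.4 ± 2.45 TPM. Adgre1 (10.3 ± 1.27 TPM) overlapped with Blk (8.12 ± 0.748 TPM), as did Flt3 (5.16 ± 0.628 TPM) with Cd79a (4.93 ± 0.502 TPM). Ms4a1 was lowest, at 2.29 ± 0.354 TPM. Among 21764 protein-coding genes ranked by mean TPM in mTEC hi, Cd52 stood at rank 124, Lyz2 at 176 and Hdc at 201, while Blk stood at 10925 and Ms4a1 at 14843. In mTEC lo the highest members were Lyz2 (49.0 TPM), Cd52 (28.7 TPM) and Cd79b (14.1 TPM), with Hdc at 8.71 TPM. The summed TPM of the 10 members was 2333 in mTEC hi and 102 in mTEC lo.

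Other blood cell genes were counted on lists chosen with earlier results of these data known, against the shares of 44.2% higher and 38% lower over all genes tested. On the B cell list of 18 genes, 14 were higher and 2 lower in mTEC hi. Cxcr5, a chemokine receptor of follicular B cells, was at 24.8 and 0.491 CPM (log2 fold change 5.66), and Pax5, the B cell commitment factor, at 27.4 and 2.17 CPM (3.66). Ighm was at 26.2 to 51.3 CPM in mTEC hi and at 10.4 to 113 CPM in mTEC lo, and was not called (edgeR adjusted p = 0.177). Igkc was at 10.4 to 18.7 CPM in mTEC hi and 2.56 to 84.3 CPM in mTEC lo, with a log2 difference of -1.34 (edgeR adjusted p = 0.031). Its call was lost with library size alone (adjusted p = 0.0892) and with DESeq2 (0.0914). Within the B cell list the log2 fold changes thus spanned -1.34 to 5.66 among the genes named.

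Of 16 B cell receptor signalling genes 8 were higher and 7 lower, a split near that of all genes. Btk, the kinase that acts after the receptor, was at 3.11 and 0.420 CPM (2.87), its adaptor Blnk at 184 and 51.5 CPM (1.84), and Vav1, an exchange factor, at 25.5 and 152 CPM (-2.58). Of 8 B cell progenitor genes 6 were higher and 1 was lower. Igll1, a surrogate light chain, was at 4.81 and 0.333 CPM (3.86), and Vpreb1, the other surrogate chain, at 0.172 and 0.409 CPM (-1.18). Of 8 plasma cell genes 3 were higher and 2 lower. Tnfrsf17, the receptor BCMA, was at 13.1 and 0.292 CPM (5.48) and Sdc1 at 147 and 305 CPM (-1.05). Jchain, at means of 8.36 and 6.98 CPM, was not called. Its libraries ran from 6.60 to 11.8 CPM in mTEC hi and from 0.745 to 13.7 CPM in mTEC lo.

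Of 17 macrophage and monocyte genes 14 were higher and 0 lower. The scavenger receptor gene Marco was at 16.1 and 0.0511 CPM (8.23), Csf1r, the receptor that macrophages need, at 26.9 and 2.99 CPM (3.19), C1qa at 8.91 and 2.81 CPM (1.69), and Itgam at 7.97 and 3.79 CPM (1.08). Of 13 dendritic cell genes 11 were higher and 2 lower, among them Ccr7 at 72.5 and 4.32 CPM (4.07), Xcr1 at 4.71 and 0.301 CPM (3.95), Itgax at 3.64 and 1.37 CPM (1.41), Zbtb46 at 56.4 and 28.5 CPM (0.98) and Sirpa at 26.2 and 55.4 CPM (-1.08). Mpo is stored with the neutrophil granule enzymes, and of 16 neutrophil and granule genes 13 were higher and 3 lower. The surface marker Ly6g was at 37.8 and 0.181 CPM (7.70), S100a8 at 130.5 and 2.75 CPM (5.58), the protease genes Prtn3 at 2.48 and 0.105 CPM (4.53) and Elane at 0.377 and 0.0364 CPM (3.46), and Ltf at 44.5 and 209 CPM (-2.23). All mTEC lo libraries together held 18 reads of Marco and 12 of Elane, of which a single library held 11. The sizes of these fold changes are therefore loosely set.

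Mast cells and basophils are the blood cells best known for Hdc. Of 14 mast cell and basophil genes 13 were higher in mTEC hi and 1 was lower. The protease gene Cma1 was at 7.10 and 0.0231 CPM (8.14), the receptor chains Ms4a2 at 8.53 and 0.0373 CPM (7.76) and Fcer1a at 3.70 and 0.102 CPM (5.19), Cpa3 at 1.29 and 0.0205 CPM (5.86), and Hnmt, which inactivates histamine, at 4.47 and 6.79 CPM (-0.61). All mTEC lo libraries together held 8 reads of Cma1, 13 of Ms4a2, 35 of Fcer1a and 7 of Cpa3. The sizes of these fold changes are therefore loosely set. All 8 tuft cell genes were lower in mTEC hi, with Alox5ap at 5.02 and 49.2 CPM (-3.30), Trpm5 at 80.9 and 530.3 CPM (-2.72) and Pou2f3 at 52.4 and 93.7 CPM (-0.84). Hdc itself was higher in mTEC hi. Of 12 progenitor and myeloid transcription factors or receptors 6 were higher and 4 lower, with Spi1 (PU.1) at 9.21 and 1.6 CPM (2.52), Myb at 112.5 and 38.5 CPM (1.55) and Runx1 at 17.3 and 152 CPM (-3.14). Erythroid and platelet genes were higher for 12 of 12, with Gp9 at 3.83 and 0.0844 CPM (5.48), Pf4 at 5.49 and 0.447 CPM (3.61) and Hba-a1 at 1.76 and 0.297 CPM (2.83).

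**Figure D2:**
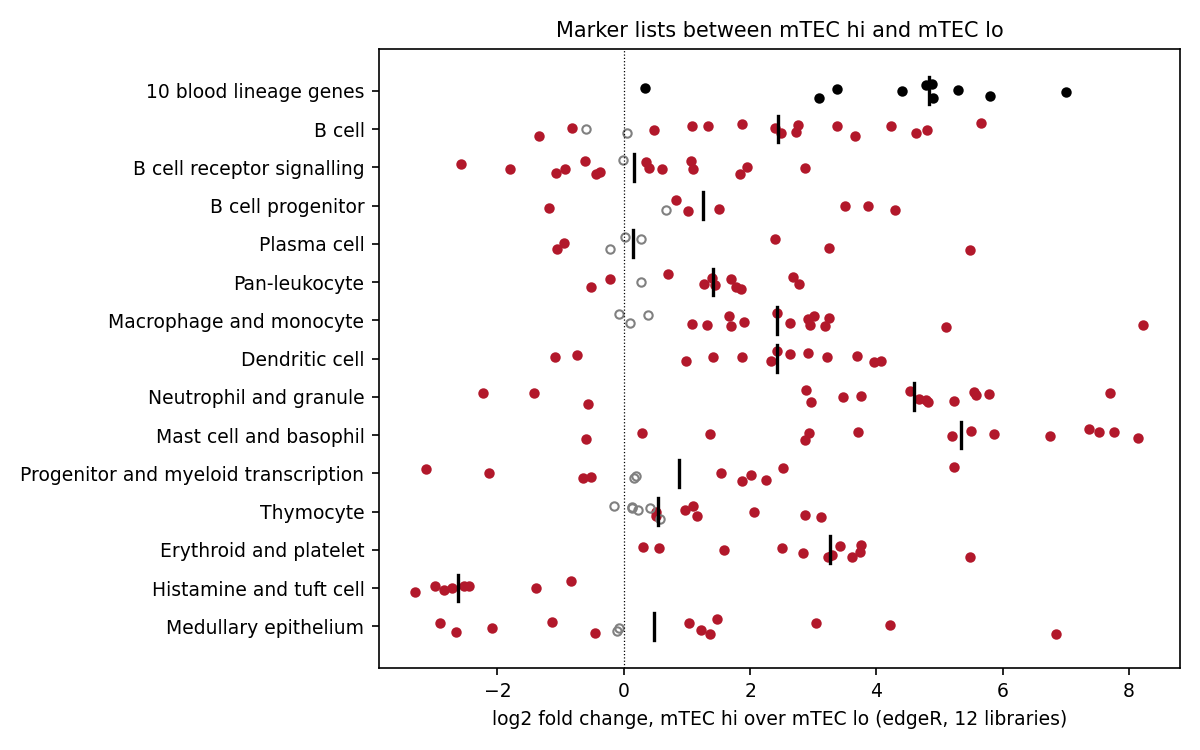
Log2 fold change of mTEC hi over mTEC lo for the 10 members (black, a description without a test) and for genes of 14 lists. Red points passed the edgeR threshold, open points did not, and bars mark medians. The mast cell list has the highest median of the lists and the tuft cell list the lowest.

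Markers shared by all leukocytes were set beside these values. Ptprc (CD45), at 10.6 to 25.9 CPM in mTEC hi and 17.3 to 28.3 CPM in mTEC lo, had a log2 difference of -0.52 (edgeR adjusted p = 0.0124), and its call was lost with library size alone (adjusted p = 0.269) and with DESeq2 (0.0811). Of 12 pan-leukocyte genes 9 were higher and 2 lower, with Laptm5 at 781 and 115 CPM (2.77) and Cd53 at 4.35 and 1.82 CPM (1.28). With library size alone none of the 12 was lower. Of 14 thymocyte genes 8 were higher and 0 lower, with Thy1 at 48.0 and 6.80 CPM (2.87) and Cd4 at 26.1 and 6.42 CPM (2.07). Cd3e, at 2.35 and 1.76 CPM, and Cd8a, at 9.38 and 6.42 CPM, were not called (edgeR adjusted p = 0.0988 and 0.0666), although both were called with library size alone (adjusted p = 0.0112 and 0.0128) and Cd8a also with RLE size factors (0.043). No defining marker on any list was at 0 in all 12 libraries. The summed level of the thymocyte list was 105 to 211 CPM in mTEC hi and 42.4 to 94.1 CPM in mTEC lo, and its part in the members' levels was not tested.

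The spread between mTEC hi libraries was compared next, as an analysis added after the values were seen. The coefficient of variation over the 6 mTEC hi libraries was 3.58% for Lyz2, 3.69% for Hdc, 4.13% for Cd52, 4.97% for Mpo and 5.21% for Blk. It was 9.48% for Cd79b, 10.8% for Adgre1, 11.5% for Flt3, 12.7% for Ms4a1 and 15.1% for Cd79a, the member with the fewest reads. Counting error alone, on the read counts, would give 0.451% for Hdc and 6.77% for Cd79a. It would be larger on the RSEM expected counts, which were 0.452 and 0.492 of these reads. In mTEC lo, where reads were fewer, the coefficient ran from 7.95% for Cd52 to 72.1% for Ms4a1. The members' median in mTEC hi was 7.35%, beside 7.24% for the 15085 genes that averaged 3 CPM or more in mTEC hi, whose quartiles were 5.14% and 10.4%. The thymocyte list had a median of 39.5%, the B cell list 7.66%, the macrophage list 9.44% and the mast cell list 11.1%.

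**Figure D3:**
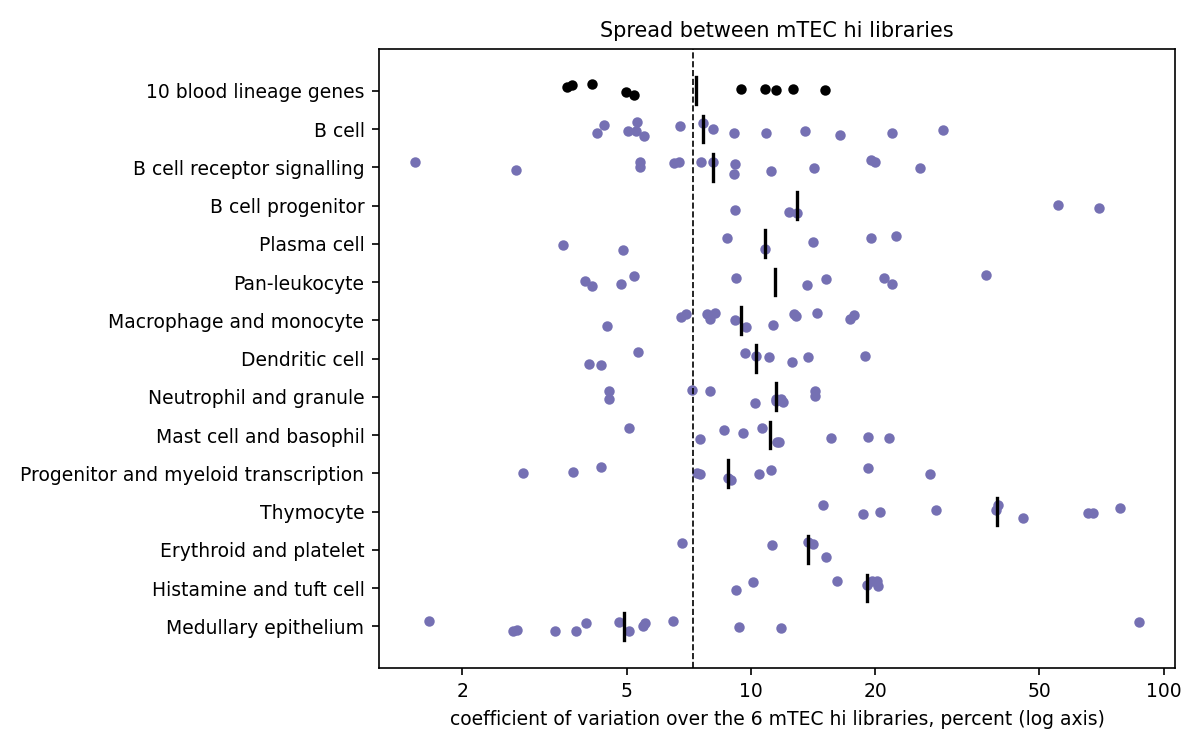
Coefficient of variation over the 6 mTEC hi libraries, on a log axis, for the 10 members (black) and the list genes that averaged 3 CPM or more. Bars mark medians and the dashed line the median of all such genes. The thymocyte list has the highest median, and the members lie around the dashed line. The highest single point, 87.2%, is Psmb11 on the medullary epithelium list.

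Across the 6 mTEC hi libraries the members did not deviate together. Of their 45 pairs 22 had a positive Pearson correlation of deviations from the mTEC hi mean, and the median was -0.13 (range -0.83 to 0.83). These correlations rest on 6 libraries that share a scaling and are descriptions without a test. The mean of the thymocyte list spanned 1.26 on the log2 scale over these libraries, and its correlation with the members had a median of 0.09 (range -0.65 to 0.97). The highest, 0.97, was that of Hdc, whose own log2 CPM spanned 0.12. Cd79a, whose span of 0.64 was the widest of the 10, had the lowest, -0.65. In mTEC lo the correlations with the thymocyte list were 0.21 for Hdc and 0.65 for Cd79a. Hdc in mTEC hi also correlated at 0.98 with the B cell progenitor list and at 0.91 with the pan-leukocyte list. With the mast cell and basophil list it was 0.86, with the progenitor and myeloid list 0.84, and with the plasma cell list -0.60. Of the lists named here, all but the plasma cell list had their highest means in the number 1 libraries titled KO and WT, as did the thymocyte list. These correlations are therefore not separate from that with the thymocyte list. Over all 12 libraries, with each cell type centred, the genes of at least 1 CPM whose deviations were most like those of Hdc were Spi1 (r = 0.94), Kif2c (0.94) and S1pr1 (0.93). For Lyz2 they were Bach1 (0.95), Hnrnpm (0.94) and Smarca2 (0.90), and for Cd52 Hexim2 (0.93), Skint2 (0.89) and Sh3bp5l (0.87), each the top 3 of 14869 genes. These values weigh the mTEC lo libraries more, since log2 CPM spanned 0.48 there for Hdc, 0.87 for Lyz2 and 0.36 for Cd52. The spans in mTEC hi were 0.12, 0.16 and 0.16.

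**Figure D4:**
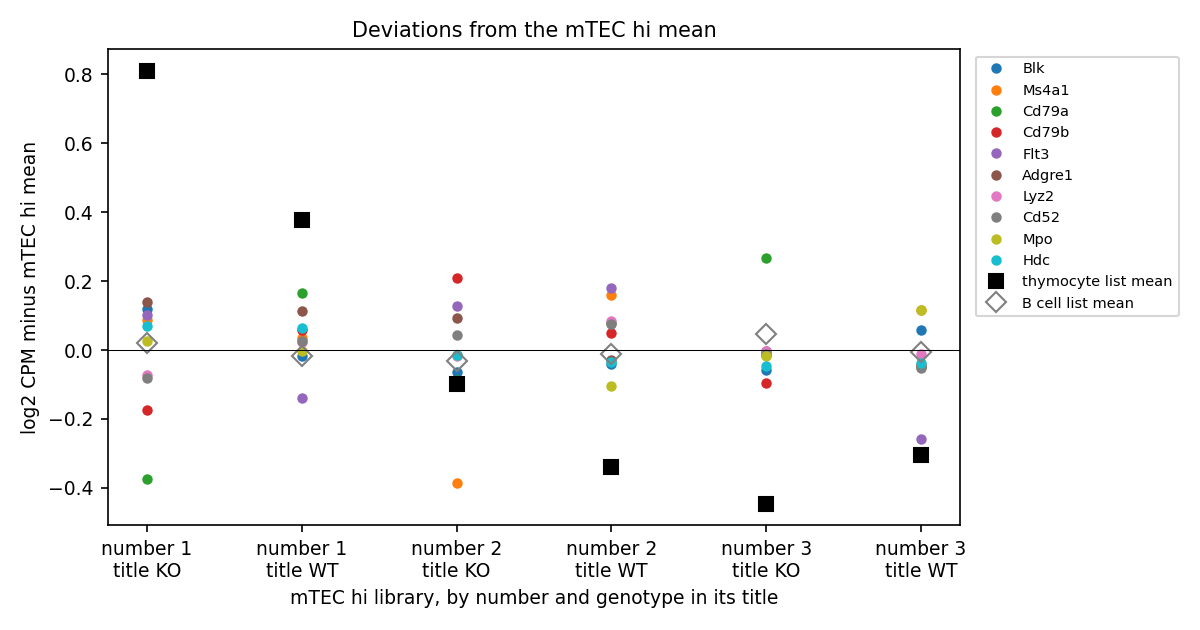
Deviation of log2 CPM from the mTEC hi mean in each mTEC hi library for the 10 members (dots), the mean of the thymocyte list (black squares) and the mean of the B cell list (open diamonds). The thymocyte mean spans 1.26 and the Hdc points 0.12.

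The members lie at different places in the genome, and their protein-coding neighbours within 100 kb were examined after the values were seen. Of 59 neighbours 53 were tested, of which 35 were higher in mTEC hi, 15 were lower and 3 were not called. Among all protein-coding genes tested 43.8% were higher. Some neighbours are relatives of the member, such as Lyz1 beside Lyz2, Epx (39.4 and 0.840 CPM) and Lpo (340.4 and 128 CPM) beside Mpo, and Ms4a5, Ms4a7 and Ms4a14 beside Ms4a1. Others are not known from blood cells. Gh, the growth hormone gene, was at 11 and 0.299 CPM beside Cd79b, and Cdx2, an intestinal factor, at 8.21 and 1.80 CPM beside Flt3. Adgre1 alone had no higher neighbour among those tested: Vav1 and Trip10 (18.4 and 77.4 CPM) were both lower.

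Loss of Psmb11 was then compared with WT, a contrast that did not enter the choice of the genes. Psmb11 itself was at 0.847 and 1.30 CPM without the gene and 10.3 and 7.54 CPM with it in mTEC hi, and at 1.63 and 1.17 against 12.2 and 7.51 CPM in mTEC lo. The conflicting libraries had 8.16 and 7.10 CPM where the title says WT and 1.12 and 1.26 CPM where the title says KO. Their Psmb11 levels thus sided with the title and went against the source name. In mTEC hi Psmb11 was the 1 gene called of 26642 (0.00375%), with a log2 fold change of -3.07 (edgeR adjusted p = 0.00457). That count was 0 without Psmb11-deficient replicate 1 and without WT replicate 2. In mTEC lo 4 genes were called (0.015%), 3 of them lower (0.0113%) than in WT. Psmb11 (-2.81) and the chaperone gene Hsph1 (-0.97) were lower. The granulocyte gene Retnlg had 0 and 1 reads in the Psmb11-deficient libraries against 40 and 55 in the WT ones, and the haemoglobin gene Hba-a1 had 39 and 39 reads against 0 and 1. The conflicting mTEC lo libraries did not show these differences by title. Retnlg had 7 reads in each, and Hba-a1 had 22 where the title says WT and 4 where it says KO.

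No member was called between genotypes in mTEC hi by edgeR or by DESeq2, and 0 of 10 had an unadjusted p under 0.05, beside 3.45% of all genes tested. Hdc was at 864 and 815 CPM without Psmb11, against 803 and 803 CPM in WT (log2 fold change 0.07, 95% interval -0.18 to 0.32). Cd52 was at 206 and 225 CPM against 229.7 and 210.1 CPM (-0.02, -0.22 to 0.17), and Mpo at 52.5 and 51.0 against 47.9 and 55.8 CPM (0.00, -0.25 to 0.26). Lyz2 was at 404 and 420.03 CPM against 450.4 and 421 CPM (-0.07, -0.40 to 0.26). The genotypes overlapped for Cd52, Mpo, Blk, Cd79b and Flt3. Both Psmb11-deficient libraries lay above both WT ones for Hdc and for Adgre1 (22.2 and 21.5 against 19.8 and 16.2 CPM). They lay below them for Lyz2, Ms4a1 and Cd79a (2.89 and 3.54 against 3.97 and 3.63 CPM). The share of all genes that separate in this way was not counted, and this order carries no test. For Hdc the interval leaves room for a change of 0.32 on the log2 scale, and for Ms4a1, at 4.62 and 3.32 CPM against 4.86 and 4.71 CPM, it ran from -1.02 to 0.50. Blk (0.03), Cd79b (0.03), Flt3 (0.14), Adgre1 (0.28) and Cd79a (-0.24) had intervals between -0.97 and 0.88. Beside these values, 14 of 14 thymocyte genes had higher estimates than WT in mTEC hi, with sums of 126 to 211 CPM against 112 to 115 CPM, 0 of them called, and their part was not tested. Other lists were also uneven, with 11 of 12 pan-leukocyte genes and 1 of 8 tuft cell genes above WT. The share of all genes above WT was not counted, and the median log2 fold change over all genes tested was 0.006. In the conflicting library titled WT (number 1) the thymocyte mean deviated by 0.38 from the mTEC hi mean, on the log2 scale. It deviated by -0.45 in the one titled KO (number 3), so these libraries did not follow the title genotype.

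In mTEC lo 0 of 10 members were called by edgeR or by DESeq2, and Ms4a1 had the only unadjusted p under 0.05, 1 of 10 beside 11.3% of all genes tested. It had 18 and 15 reads (0.279 and 0.259 CPM) without Psmb11, against 7 and 0 reads (0.125 and 0 CPM) in WT, with a log2 fold change of 2.06 ± 0.70 (SE) and an edgeR adjusted p of 0.311. Over the alternatives the adjusted p ran from 0.0274 without a filter on low counts to 0.682. The estimate was 7.01 without WT replicate 2, which leaves only the WT library with 0 reads so that the fitted value is no bound, and 1.11 without WT replicate 3. Thymocyte genes were again set beside these values: 14 of the 14 had higher estimates than WT in mTEC lo, their sum was 66.9 to 94.1 CPM against 42.4 to 45.7 CPM, 0 of the 14 were called, and their part in these values was not tested. Other lists were uneven here too, with 12 of 14 mast cell and basophil genes and 2 of 16 neutrophil and granule genes above WT. The share of all genes above WT was not counted, and the median log2 fold change over all genes tested was 0. The thymocyte mean deviated by 0.32 from the mTEC lo mean in the conflicting library titled WT (number 1). It deviated by -0.25 in the one titled KO (number 3).

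Lyz2 was at 28.4 and 43.7 CPM in the Psmb11-deficient mTEC lo libraries and at 38.1 and 44.8 CPM in the WT ones (-0.21, 95% interval -0.55 to 0.13). Without Psmb11-deficient replicate 2 the estimate was -0.56 and was called (edgeR adjusted p = 0.0292), without Psmb11-deficient replicate 1 it was 0.08, and with the title genotype over 12 libraries 0.02. Blk (0.54), Cd79a (0.61), Flt3 (-0.42), Adgre1 (0.07), Cd52 (0.21), Mpo (0.03), Hdc (0.00) and Cd79b (-0.04) were not called. For Hdc the interval was -0.27 to 0.28, and for Flt3, with 7 to 29 reads per mTEC lo library, it was -1.49 to 0.65.

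**Figure D5:**
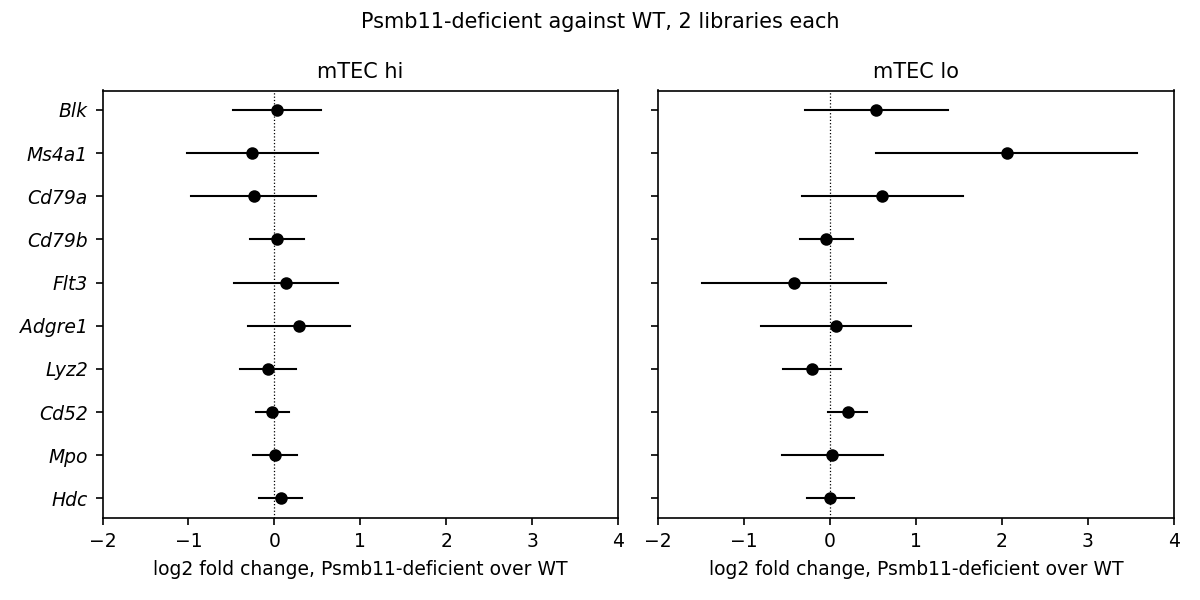
Log2 fold change of Psmb11-deficient over WT libraries, 2 of each, for the 10 members in mTEC hi and mTEC lo, with 95% intervals from edgeR. The interval of Ms4a1 in mTEC lo is the only one that leaves out 0, and its adjusted p is 0.311.

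The difference between the genotype effects in mTEC hi and mTEC lo was tested as an interaction. Of 26642 genes 0 were called by edgeR, with 1174 at an unadjusted p under 0.05, and DESeq2 called 4. No member was called. Ms4a1 had the largest estimate, -2.32 ± 0.79 (SE, unadjusted p = 0.0116 by edgeR, adjusted p = 0.99985). It was -7.26 without WT replicate 2 of mTEC lo, which leaves the WT library with 0 reads, and -1.37 without WT replicate 3, that library. Over the alternatives the adjusted p was lowest without a filter on low counts, 0.0763. The interval of Hdc, the member with the most reads, was -0.30 to 0.44.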

How the data were processed

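The authors deposited whole-number read counts per gene for each of 12 libraries (without strand and for each strand), and RSEM expected counts and TPM. The RSEM expected counts of a library came to 0.507 to 0.535 of its read counts without strand, and the cause was not tested. Tools named in the submitters' processing notes are CASAVA 1.8.2, STAR 2.5.1b and RSEM 1.2.28. The notes give the build as GRCh38, although the identifiers are mouse genes. The annotation version was not given in the sources used here. Strand columns held 50.4% to 50.8% of reads, so counts without strand were used. Reads in no gene (7.54% to 16.1%) entered no total. Of 50600 identifiers 50376 matched GENCODE M21 (GRCm38), members included.

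R 4.3.3 with edgeR 4.0.16 was used: filterByExpr (minimum count 10, total 15), TMM, and the quasi-likelihood test with Benjamini-Hochberg adjustment over all genes, threshold 0.05. The cell type fit (12 libraries, genotype class as a covariate) was filtered by cell type. That grouping replaced, after its counts were seen, a filter by the design, which is kept as an alternative. Genotypes were compared in 8 libraries as 4 groups, with 4 residual degrees of freedom. DESeq2 1.42.0 was an alternative. The fits were also run on simulated counts with few genes changed and the same dispersion for every gene. That run does not check the scaling between cell types in which most genes differ. The log2 CPM has a prior count of 1.

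The members and lists were chosen with earlier results of these data known. Named are all members, each list's defining genes and its called genes of largest rise and fall (mean of at least 1 CPM), genes called between genotypes where 5 or fewer, and, for the 3 members with most reads, the 3 most alike genes. Some genes that this rule names are not reported here. Neighbours, promoter motifs, CpG counts and the strand check were added after values were seen. Transcript shares were planned but not run, since the RSEM tables used here are per gene. Alternatives were other scalings, no filter, RSEM counts, other genotype labels, a replicate block, a 2-fold minimum change and leaving out each library.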

Additional observations from a re-analysis of the deposited data

Results flagged for a closer look

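Ms4a1 in mTEC hi was at 3.32 CPM (153 reads) in Psmb11-deficient replicate 2, while the other 5 libraries lay between 4.30 and 4.86 CPM. The gap to the nearest library was 0.638 of the range, above Dixon's critical value of 0.625 for 6 libraries. This was the only such library among 20 groups of 6, where chance flags about 1 in 20.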

How the results depend on the processing

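The mTEC hi to mTEC lo fold changes of the 10 members kept their sign in all 210 alternative values, and 203 moved by less than the spread between libraries. Members whose libraries did not overlap between the cell types were 9 in CPM by TMM and 10 in TPM and in CPM by library size alone, the difference being Cd79b. Calls between the cell types fell from 19649 to 9625 with a minimum change of 2-fold, and were 21421 with the filter by the design, an alternative added after the data were seen. In mTEC hi the genotype calls rose from 1 to 3 with DESeq2, 42 without a filter and 3 with RSEM counts, were 0 with genotype from the source name, and ranged from 0 to 2 with a library left out. In mTEC lo they rose from 4 to 9 with library size alone, 147 with DESeq2 and 660 without a filter, were 2 with genotype from the source name, and ranged from 1 to 323 with a library left out (323 without Psmb11-deficient replicate 2, 263 without replicate 1). Members called in mTEC lo were 1 without a filter (Ms4a1) and 0 to 1 with a library left out (Lyz2). Interaction calls rose from 0 to 4 with DESeq2, 141 without a filter and 2 with RSEM counts, and ranged from 0 to 49. The cause was not tested. Genotype from the source name goes against the Psmb11 levels of the libraries with conflicting labels, which sided with the title. In mTEC hi 0 members were called under any alternative. Of 160 alternative values each, the sign of an uncalled member differed in 17 in mTEC hi, 22 in mTEC lo and 15 for the interaction.

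Libraries with the same number and genotype in the title correlated at -0.03 to 0.42 across genes, and 2 of 6 matched best with their own title. The numbers were therefore not taken to pair the libraries in the main fits. Some genes may still vary with the number. The thymocyte mean was highest in the number 1 libraries titled KO and WT. There it lay 0.81 and 0.38 above the mTEC hi mean and 0.64 and 0.32 above the mTEC lo mean (log2 scale). A difference between title numbers was not tested by itself. With a replicate block 45 genes were called in mTEC lo and 7 in the interaction, none of them a member. With 2 libraries per genotype, few reads in mTEC lo limit Ms4a1, Flt3, Mpo, Blk and Cd79a most.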
